A study of Mus musculus with 2 samples.

Results

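To examine how the glutathione system of breast cancer cells responds to astragalin (AS), a plant flavonoid, 10 genes for the synthesis, recycling, use and export of glutathione were followed in the RNA-sequencing data of 4T1 cells. The genes were picked by name, with earlier results of these data known, and 9 of them were among the 14197 genes of the deposited table. These were Gclc, Gclm, Gss, Gsr, Ggct, Gpx1, Gpx4, Abcc1 and Cth, and Cbs was not listed. 4T1 is a murine mammary carcinoma line, here of wild-type genotype. One library was made from cells exposed for 24 h to AS at 20 μM, and the other from cells given the vehicle. With 1 library per group no difference has a replicate check and no test was made. The intervals given are 95% intervals that cover the counting error of the reads only, and any unlike handling of both dishes cannot be told apart from AS.

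Glutathione is a tripeptide of glutamate, cysteine and glycine, and it is the most abundant small thiol of animal cells. It is made in 2 steps, of which the first, joining glutamate to cysteine, limits the rate, and the supply of cysteine limits it too. Glutathione peroxidases spend it to reduce peroxides, glutathione reductase restores it with NADPH, and export pumps carry it and its conjugates out of the cell. Tumor cells rely on this cycle to withstand oxidants, and several of its genes are known targets of the transcription factors NRF2 and ATF4.

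RPKM counts reads relative to exon length and library size, so it allows levels to be compared between genes. The reads behind the RPKM were recovered, and the library sizes were 44909683 reads for AS and 50820728 for the vehicle. The glutathione genes had between 199 and 13456 reads per library. The log2 fold change is that of AS over vehicle with 0.1 RPKM added to both values. Its median over all genes was 0.07, and scaling by TMM, by the median of ratios or by the upper quartile each lowered every value by 0.07. The carcinoma markers Epcam, Krt8, Krt18, Krt7, Krt14, Cdh1 and Cldn4 were all listed and summed to 1686 RPKM with AS and 2111 with the vehicle. Without scaling, Krt14 alone among them differed by more than 1.5-fold, with a log2 fold change of -0.96. Krt8 and Krt7, at -0.54 and -0.52, lay near that threshold. Krt18 and Epcam were at -0.35 and -0.09, and Cdh1 and Cldn4 were higher, at 0.17 and 0.42. Of 8 markers of leukocytes, endothelium and fibroblasts, 5 were not listed and the others summed to 28.3 and 32.4 RPKM, most of it Cd68 at 24.0 and 28.1 RPKM. The part of these shifts in the values below was not tested, and in bulk RNA a change in every cell cannot be told apart from a larger change in some of them.

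The glutathione genes did not move as a block. Gclc, which encodes the catalytic subunit of the first enzyme, was more than doubled in the AS library. Cth, whose product makes cysteine, was next. Abcc1, Gsr and Gclm were higher by smaller amounts, Ggct, Gpx4 and Gss were within counting error of no difference, and Gpx1 was lower. The study calls a gene differentially expressed by a log2 fold change of 1 together with a cutoff on the false discovery rate (FDR). Only the fold change was used here, and 1 of the 9 genes, Gclc, was above 1 and 0 were below -1. Over all genes 0.662% were above 1 and 0.31% below -1. The counts over all genes depended on the setting. They were 94 higher and 44 lower, and moved to 75 and 57 with TMM scaling, to 161 and 66 with no RPKM added and to 38 and 16 with 1 RPKM added. The methods of the study give another fold threshold, 1.5-fold, for array spots and together with a p-value cutoff. At 1.5-fold alone, 2 of the 9 genes, Gclc and Cth, were higher and 0 were lower, against 3.56% and 2.01% of all genes. The balance over all genes at 1.5-fold, 505 higher and 286 lower, turned to 382 and 407 with TMM, 380 and 408 with the median of ratios and 372 and 414 with the upper quartile. It was 189 and 130 with 1 RPKM added, while the count of the 9 genes stayed at 2 higher and 0 lower under each of these settings. The median log2 fold change of the 9 genes was 0.22, and 4 of them lay in the middle 50% of all genes, between -0.10 and 0.23. The interval lay above the median of all genes for 5 genes and below it for 1 gene, Gpx1.

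**Figure D1:**
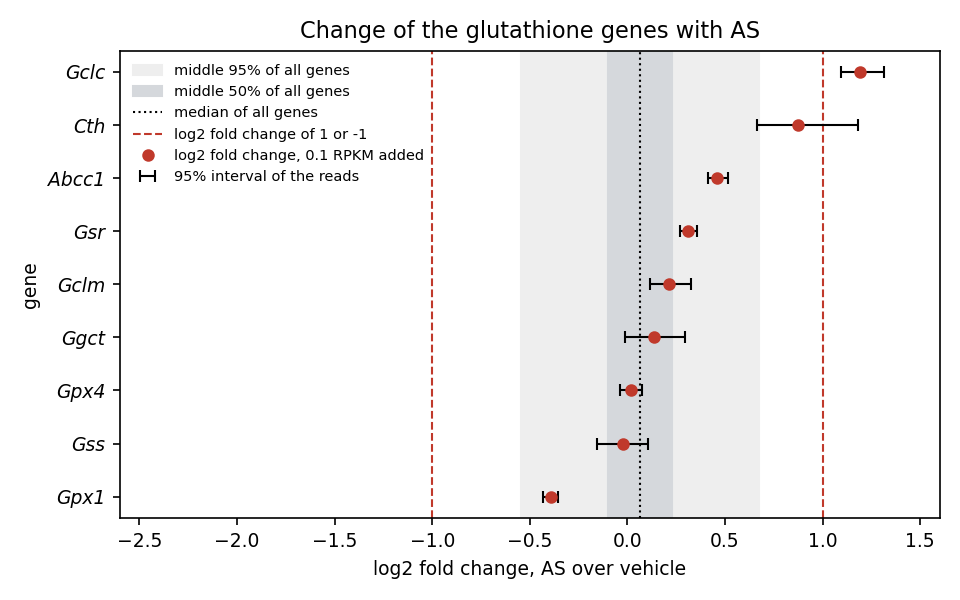
Log2 fold change of AS over vehicle (horizontal axis) for each of the 9 glutathione genes (vertical axis), 1 library per group. Red points are values with 0.1 RPKM added, black bars are 95% Clopper-Pearson intervals of the reads (counting error only), grey bands hold the middle 50% and 95% of all 14197 genes, and dashed lines mark 1 and -1. Gclc at 1.19 lies beyond the dashed line, and Gpx1 at -0.39 is the lowest.

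The first step of synthesis is carried out by glutamate-cysteine ligase, a pair of a catalytic subunit encoded by Gclc and a modifier subunit encoded by Gclm that lowers the feedback inhibition by glutathione. Gclc (GRCm38 chr9:77754535-77794485, plus strand) stood at 12.3 RPKM in the AS library and at 5.33 RPKM in the vehicle library, for which 2079 and 1021 reads were counted. The AS library was thus 2.30-fold higher, with an interval from 2.14 to 2.49, and the log2 fold change of 1.19 was number 44 from the top of all genes. Gclm (chr3:122245557-122270732, plus strand) stood at 5.23 RPKM after AS and 4.49 RPKM after the vehicle (1478 and 1436 reads). Its log2 fold change was 0.22 with an interval from 0.11 to 0.33. The transcript of the modifier subunit was thus higher by more than counting error, but by far less than that of the catalytic one.

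Within a library the ratio of Gclm to Gclc does not depend on the scaling between libraries. It was 0.842 with the vehicle, with an interval from 0.776 to 0.913, and 0.426 with AS, with an interval from 0.398 to 0.455. The ratio was thus lower by 0.98 on the log2 scale (95% interval from -1.13 to -0.83, counting error only, normal approximation). The transcripts of both subunits stood close to each other in the vehicle library. With AS the transcript of the catalytic subunit had more than double the level of its partner. These are RNA levels, and the ratio of the proteins was not measured here. The reads of Gclm are less certain than those of Gclc, since the annotation places the pseudogene Gm6061 within Gclm on the same strand and Gm17494 on the opposite strand. Both are in the table, Gm6061 at 40.7 RPKM with AS and 52.0 with the vehicle, and Gm17494 at 2.39 and 3.05. Both were lower with AS, with log2 fold changes of -0.35 and -0.34. Gm6061 thus stood far above Gclm itself, and its part in the reads of Gclm and in the ratio was not tested.

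The second step, the addition of glycine, is carried out by glutathione synthetase, the product of Gss (chr2:155563181-155592810, minus strand). Gss stood at 3.32 RPKM after AS and 3.38 RPKM after the vehicle (882 and 1015 reads). The log2 fold change of -0.024 had an interval from -0.16 to 0.11, so a difference was not detectable at this depth. On the opposite strand Gss overlaps Acss2, Gssos1 and Gssos2, and the strand setting of the authors' counting is not given in the sources used here. Summed over Gclc, Gclm and Gss, the level was 20.8 RPKM after AS and 13.2 RPKM after the vehicle, and Gclc made up nearly all of the difference.

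Cysteine for this pathway can be made from methionine by transsulfuration, in which Cbs forms cystathionine and Cth, cystathionine gamma-lyase, splits it. Cth (chr3:157894248-157925077, minus strand) had the lowest level of the 9 genes in the vehicle library. There it stood at 1.40 RPKM (199 reads), against 2.66 RPKM (333 reads) after AS. The log2 fold change was 0.88, number 155 from the top of all genes, and the interval of the reads from 0.66 to 1.18 includes the threshold of 1. Cbs was not listed, so the earlier step of the route was not analysed here. Ggct, gamma-glutamylcyclotransferase, acts on gamma-glutamyl amino acids in the recycling of glutathione parts (chr6:54982580-54992950, minus strand). It stood at 1.95 RPKM after AS and 1.77 RPKM after the vehicle (679 and 696 reads). Its log2 fold change of 0.14, with an interval from -0.012 to 0.30, did not go beyond counting error.

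The reduced form of glutathione is restored by glutathione reductase, the product of Gsr (chr8:33652523-33698163, plus strand). Gsr was among the more abundant members, at 69.4 RPKM after AS and 55.9 RPKM after the vehicle (8587 and 7827 reads). Its difference on the log2 scale was 0.31 with an interval from 0.27 to 0.36, small but well outside counting error. Abcc1, which encodes the export pump MRP1 for glutathione conjugates and oxidized glutathione (chr16:14361558-14475737, plus strand), stood at 10.5 RPKM after AS and 7.57 RPKM after the vehicle (7083 and 5807 reads). The log2 fold change of 0.46, with an interval from 0.41 to 0.52, was higher than that of 93.3% of all genes and below both fold thresholds.

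Gpx1 and Gpx4 encode selenium-dependent peroxidases. Gpx1 is the abundant cytosolic enzyme for hydrogen peroxide, and Gpx4 reduces lipid peroxides in membranes and protects from ferroptosis, a form of death by lipid peroxidation. Both carry selenocysteine in the active site, encoded by a TGA codon that elsewhere ends translation. The codon with 12 bases on either side is shown from GENCODE M21, in transcripts Gpx1-201 and Gpx4-202, to show what these members share. Capitals mark the selenocysteine codon, which is codon 47 of 201 in Gpx1 and codon 73 of 197 in Gpx4.
Gpx1, GRCm38 chr9:108339451-108339453 (codon), plus strand: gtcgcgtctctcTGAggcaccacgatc
Gpx4, GRCm38 chr10:80054737-80054739 (codon), plus strand: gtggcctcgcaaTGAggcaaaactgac
Of these 27 bases, 17 are identical between the genes, the codon included.

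The values of the peroxidases went apart. Gpx1 (chr9:108338903-108340343, plus strand) stood at 140.03 RPKM after AS and 183.7 RPKM after the vehicle (9062 and 13456 reads). It had the highest level of the 9 genes in both libraries, and it was 0.762-fold with AS, with an interval from 0.742 to 0.783. The log2 fold change of -0.39 was number 764 from the bottom of all genes and was within 1.5-fold. Gpx4 (chr10:80047166-80056439, plus strand) stood at 65.4 RPKM after AS and 64.5 RPKM after the vehicle (5062 and 5652 reads). Its log2 fold change of 0.019, with an interval from -0.036 to 0.074, turned to -0.049 with TMM and median-of-ratios scaling and to -0.054 with upper-quartile scaling. Gpx4-ps2, a processed copy of Gpx4 in the table, had 6.01 and 5.70 RPKM, and the authors' handling of reads that match both is not given in the sources used here.

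Within the libraries, Gpx4 stood at 0.351 of the level of Gpx1 with the vehicle (interval from 0.340 to 0.362) and at 0.467 with AS (interval from 0.451 to 0.483). The transcript of the reductase that serves the peroxidases moved further against Gpx1. The ratio of Gsr to Gpx1 was 0.304 with the vehicle, with an interval from 0.296 to 0.313, and 0.496 with AS, with an interval from 0.481 to 0.511. These are changes of 0.41 and 0.70 on the log2 scale. Summed over both peroxidases, the level was 205.4 RPKM after AS and 248.3 RPKM after the vehicle.

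**Figure D2:**
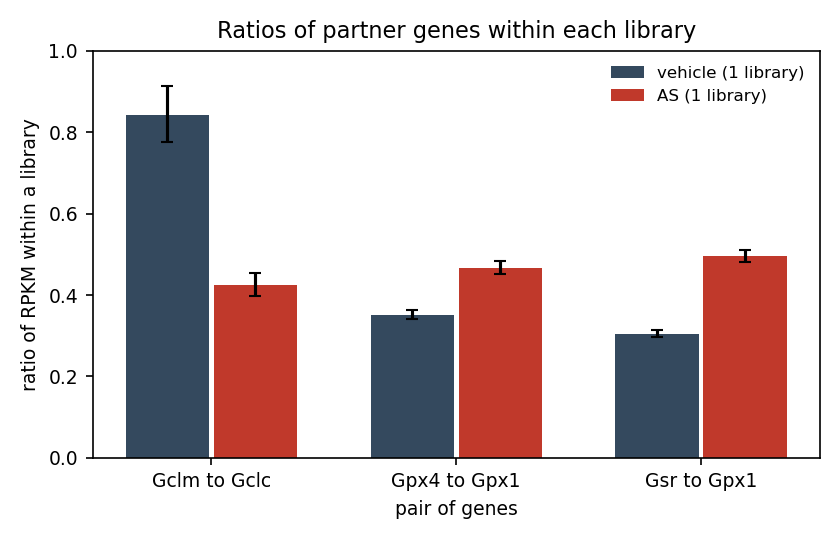
Ratio of the RPKM of 2 genes within the same library (vertical axis, from 0) for Gclm to Gclc, Gpx4 to Gpx1 and Gsr to Gpx1, with the vehicle library in blue-grey and the AS library in red. Bars are 1 library each and error bars are 95% Clopper-Pearson intervals of the reads, and the ratio of Gclm to Gclc goes from 0.842 to 0.426 while the others are higher with AS.

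The levels of the 9 genes spanned a 131-fold range with the vehicle and a 71.7-fold range with AS. In the vehicle library the order from the top was Gpx1, Gpx4, Gsr, Abcc1, Gclc, Gclm, Gss, Ggct and Cth. In the AS library Gsr passed Gpx4, Gclc passed Abcc1 and Cth passed Ggct, and the other genes kept their places. Each gene differed from the next in the order by more than counting error in both libraries, and the closest neighbours were Gsr and Gpx4 with AS, at a ratio of 1.06 with an interval from 1.03 to 1.10. The transcripts of the peroxidases and the reductase stood in the upper part of the table, at percentile 93.2 or above in each library. Gclm and Gss stood between percentiles 38.5 and 50.7. Gclc went from percentile 52.8 to 71.9 and Cth from 20.6 to 32.7. The lengths are those of all annotated exons in sum, up to 15092 bases for Abcc1 and 7745 for Ggct, and the RPKM of a gene that uses few of its annotated exons is therefore understated alike in both libraries.

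**Figure D3:**
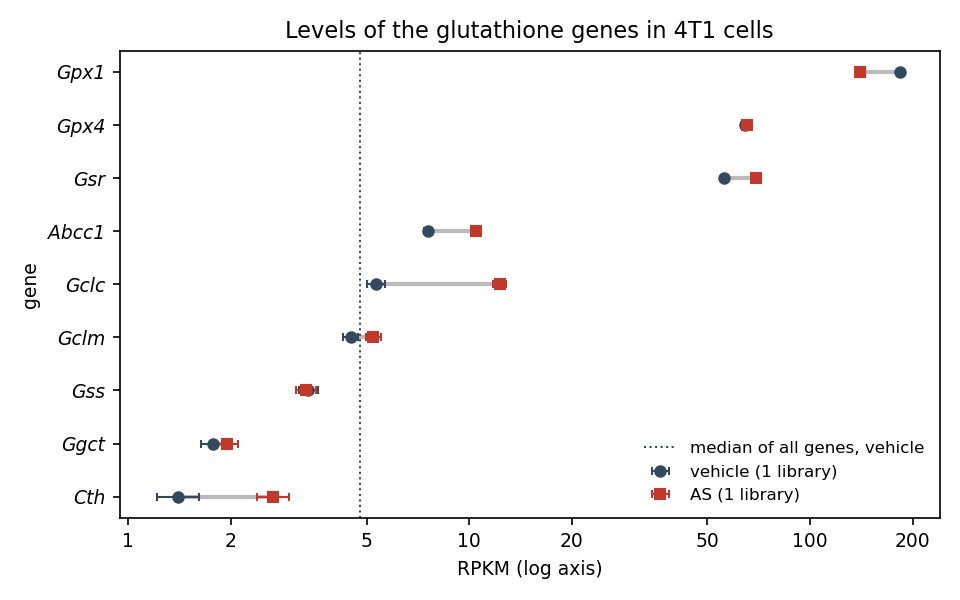
RPKM (horizontal log axis) of the 9 glutathione genes (vertical axis) in the vehicle library (circles) and the AS library (squares), 1 library each, with 95% Poisson intervals of the reads that are mostly narrower than the symbols. The dotted line is the median of all genes with the vehicle, 4.79 RPKM. Gclc and Cth move furthest to the right with AS, and Gpx1, at the top, moves left from 183.7 to 140.03 RPKM.

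The promoters were searched for the letters TGACNNNGC, the core of the antioxidant response element that NRF2 reads, and TGATGNAA, a core of the composite element that ATF4 reads with C/EBP proteins. The search took both strands of the 250 bases before each RefSeq start (GRCm38.p6), which were at hand for 9 windows of Gclm, Ggct, Gss, Gpx1, Gpx4 and Cbs. Gclc, Gsr, Abcc1 and Cth had no entry. TGACNNNGC was found in 2 of these windows, those of Gclm and Ggct, and in 10.2% of the 32851 windows of all genes. The sites are shown with 10 bases on either side, with the match in capitals, on the strand of the gene.
Gclm, chr3:122245413-122245441, plus strand: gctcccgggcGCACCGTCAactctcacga
Ggct, chr6:54993023-54993051, minus strand: caatagaaaaGCGACGTCAgtgggcggga
Both matches lie on the strand opposite to the gene, where they read TGACGGTGC and TGACGTCGC, and they start 134 and 174 bases before the RefSeq start of the gene. Each also holds TGACG, the half-site of the cAMP response element. TGATGNAA was in 0 of the members' windows and in 3.45% of all windows. The genes with a match had log2 fold changes of 0.22 and 0.14, and a match of letters does not show a bound site.

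Around these genes, 6 lists of the wider pathway held 73 other genes, of which 56 were in the table. Of the 56 genes, 2 had a log2 fold change above 1 and 0 below -1, and 8 were more than 1.5-fold higher and 0 as much lower, where the shares of all genes at that threshold were 3.56% and 2.01%. The count of 8 is without scaling between libraries. Median-of-ratios scaling would take Abcc4, Secisbp2l and Mtrr below 1.5-fold, so the count depends on the scaling. The lists were chosen with earlier results of these data known, so genes known to be higher could be in them. The shares of all genes are therefore no background for a test of the lists. Counts this small in the single lists below are to be read beside the same shares. The median log2 fold change of the 56 genes was 0.09, against 0.07 for all genes. The supply of cystine and methionine was the list with the most genes past a threshold. It had 15 of 18 genes in the table with a median of 0.22, and 4 of the 15 were more than 1.5-fold higher and 0 as much lower. Slc7a11 and Slc3a2 encode the light and heavy chains of the cystine importer. They had 3944 and 15792 reads with AS against 338 and 6603 with the vehicle. Their log2 fold changes were 3.47 and 1.43. Sqor, which oxidizes hydrogen sulfide in mitochondria, was at 8.31 and 5.13 RPKM (0.69), and Mtrr, which keeps methionine synthase active, at 3.05 and 1.92 RPKM (0.64). Slc7a11 and Slc3a2 were thus higher with AS by a wider margin than any of the 9 glutathione genes. Of those 9 genes, Gclc and Cth came next.

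Of 13 genes of glutathione breakdown and the gamma-glutamyl cycle 7 were in the table, with a median log2 fold change of -0.018. Of these, 0 differed by more than 1.5-fold in either direction, which is no result about so short a list when so few of all genes do. Chac2, a gamma-glutamylcyclotransferase that cleaves glutathione, had the highest level of this list, at 25.5 RPKM with AS and 23.6 with the vehicle (0.12). Chac1, its stress-induced relative and a known ATF4 and CHOP target, was chosen after its values were seen. It had 8.16 and 6.85 RPKM, from 600 and 570 reads, and a log2 fold change of 0.25 with an interval from 0.08 to 0.42. On the log2 scale this is several times smaller than the difference of Gclc.

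Other peroxidases, glutaredoxins and glyoxalases had 9 of 13 genes in the table and a median of 0.09, with 0 genes beyond 1.5-fold. Esd, the esterase that frees glutathione from S-formylglutathione, had the highest level, at 79.3 and 53.1 RPKM, and its log2 fold change of 0.58 lay just within 1.5-fold. Of the other carriers, 8 of 9 genes were in the table with a median of 0.08. Abcc4, which encodes the export pump MRP4, alone was more than 1.5-fold higher, at 9.23 and 5.83 RPKM and a log2 fold change of 0.65. Slc25a39, the mitochondrial glutathione importer, was chosen after its values were seen and had 14.2 and 14.3 RPKM.

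Selenoproteins such as Gpx1 and Gpx4 need a machinery that reads TGA as selenocysteine. All 9 genes of that list were in the table, with a median of 0.03, and 2 of them were more than 1.5-fold higher and 0 as much lower. Sars, the seryl-tRNA synthetase that also charges the selenocysteine tRNA with serine, had 189 and 101 RPKM and a log2 fold change of 0.90. Secisbp2l, a relative of the protein that binds the selenocysteine insertion element, had 19.0 and 12.1 RPKM and a log2 fold change of 0.65. The partners of Gpx4 in lipid peroxidation and iron handling had 8 of 11 genes in the table and a median of 0.07. Slc40a1, the iron exporter ferroportin, alone was more than 1.5-fold higher, at 0.767 and 0.433 RPKM (310 and 198 reads) and a log2 fold change of 0.70. Acsl4, which loads membranes with the fatty acids that Gpx4 protects, was chosen after its values were seen and had 43.3 and 40.6 RPKM.

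**Figure D4:**
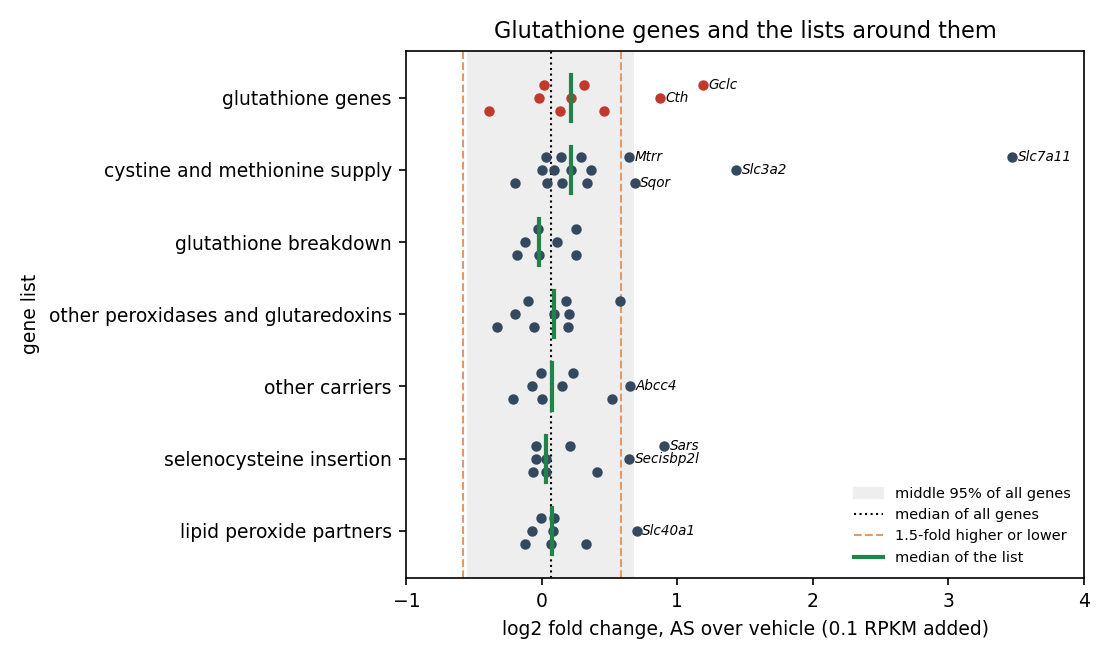
Log2 fold change of AS over vehicle with 0.1 RPKM added (horizontal axis) for the 9 glutathione genes (red) and the 56 other pathway genes in 6 lists (blue-grey), 1 point per gene and 1 library per group. Green bars are list medians, the grey band holds the middle 95% of all genes, dashed lines mark 1.5-fold, and genes beyond it are named. Slc7a11 at 3.47 and Slc3a2 at 1.43 lie furthest to the right, and no gene is more than 1.5-fold lower.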

How the data were processed

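RNA of 4T1 cells was extracted with TRIzol and made into stranded mRNA libraries, 1 per group. The authors deposited 1 table with 2 columns of RPKM, 1 per library, for 14197 genes. The header does not name this unit, and it was inferred from the values. The submitters' processing notes name fastp 0.23.4, STAR 2.5.3a, featureCounts and the build GRCh38, a human build. The RPKM, however, gave whole reads (within 0.01) with the summed exon lengths of mouse GENCODE M21 (GRCm38) for 94.3% of 13502 genes with AS and 94.2% with the vehicle, and for all 9 glutathione genes. Coordinates are therefore from GENCODE M21. The authors' filter on low genes and multi-mapped reads are not given in the sources used here. The lowest gene with recovered reads had a mean of 31 reads. The authors' own log2 fold change, mean log2 CPM, p-value and FDR are also deposited and were not used.

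The members and the pathway lists were chosen with earlier results of these data known. Fold changes were log2 ratios of RPKM with 0.1 RPKM added. Only the fold part of the thresholds of the study was used (a log2 fold change of 1, and a smaller one equal to 1.5-fold), with no p-value or FDR. Intervals were 95% Clopper-Pearson intervals of the recovered reads (Poisson for a level), and reads without molecular identifiers are not independent molecules. Alternatives were 0 or 1 RPKM added, scaling by upper quartile, median of ratios or TMM, a minimum mean of 1 RPKM, and means in place of medians. Of each pathway list the genes beyond 1.5-fold were named or, with none, the gene with the highest RPKM, and the text marks any other gene as chosen once its values were known. The ratio of Cth to Cbs was planned and could not be made, since Cbs was not listed. The computations ran in Python 3.11 (scipy 1.17.1) and were tested on simulated data.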

Additional observations from a re-analysis of the deposited data

How the results depend on the processing

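No alternative changed which side of a log2 fold change of 1 any of the 9 genes lay on. Of 54 values of single glutathione genes under the alternatives, 40 stayed within their counting interval and 14 did not, mainly by the shift of 0.07 with the other scalings. The 40 include the value of each of the 9 genes under the minimum mean of 1 RPKM. That filter cannot change the value of a single gene, so these say nothing about stability. Gpx4 alone changed sign. The lowest log2 fold changes of Gclc and Cth under any alternative were 1.07 and 0.61, both with 1 RPKM added. At the 1.5-fold threshold the count of higher genes was 2 of the 9. In the lists it was 4 of 15 for cystine and methionine supply, 1 of 8 for other carriers and 2 of 9 for selenocysteine insertion. It was 1 of 8 for lipid peroxide partners, 0 of 7 for glutathione breakdown and the gamma-glutamyl cycle, and 0 of 9 for other peroxidases and glutaredoxins. In each list 0 genes were as much lower, and over all genes 3.56% were higher and 2.01% lower. The list counts at 1.5-fold are from the main setting, with 0.1 RPKM added and no scaling between libraries. They were not repeated with the other scalings or with 1 RPKM added. Abcc4, Secisbp2l and Mtrr, at 0.65, 0.65 and 0.64, lay close to the threshold. The shift of 0.07 by median-of-ratios or upper-quartile scaling would take them below 1.5-fold. The counts of the lists that hold these genes therefore depend on the scaling. The stability of the list counts with 1 RPKM added is not known. Slc40a1, below 1 RPKM in both libraries, had a log2 ratio of 0.83 with no RPKM added and 0.70 with 0.1 RPKM. Without division by exon length the ratios within a library were 1.41 with the vehicle and 0.711 with AS for Gclm to Gclc. They were 0.420 and 0.559 for Gpx4 to Gpx1, and 0.582 and 0.948 for Gsr to Gpx1. Exon length cancels in the change of a ratio between libraries, so those changes could not differ. No paired analysis was possible because each group had 1 library, and for the same reason no replicate could be left out. The depth limits a difference in Cth, with 199 reads in the vehicle library, more than in any other glutathione gene.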

Other observations

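The genes with an annotated selenocysteine codon, a list made after the values of Gpx1 were seen, put the peroxidases beside their relatives. GENCODE M21 marks such a codon in 24 genes, of which 19 were in the table. Their median log2 fold change was -0.03, against 0.07 for all genes, with 2 genes more than 1.5-fold higher and 0 as much lower, where 3.56% and 2.01% of all genes were. Gpx1 at -0.39 and Selenoh, a nuclear redox protein, at -0.50 had the lowest values of the 19. Selenoh had 24.1 RPKM with AS and 34.1 with the vehicle. Selenow stood at 46.5 and 45.9 RPKM, so that its log2 fold change of 0.018 was close to that of Gpx4. At the other end Txnrd1, cytosolic thioredoxin reductase, had 50.8 RPKM with AS and 27.6 with the vehicle, and a log2 fold change of 0.88, near that of Cth. Dio2, an enzyme that activates thyroid hormone, was low in both libraries, at 0.465 and 0.245 RPKM (0.71 on the log2 scale). All genes named here were chosen after their values were seen.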
